A study of Homo sapiens with 20 samples.

Results

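The 10 genes described here are the immediate early transcription factor genes FOS, FOSB, FOSL1, FOSL2, JUN, JUNB, JUND, EGR1, EGR2 and EGR3. They were selected by gene name, and all 10 were among the 27697 genes tested of 34439 protein-coding and lncRNA genes in the files. The samples were cultures of NGP, a human neuroblastoma cell line, grown in 6-well plates. In 10 samples the cells had received nutlin-3 at 8 µM as a racemic mixture, and in the other 10 samples only its vehicle, ethanol. Nutlin-3 blocks the binding of p53 by MDM2, the ubiquitin ligase that otherwise keeps p53 low. The duration of treatment is not given in the sources used here, so the levels stand for a single, unstated time point. All samples came from this 1 line. In such bulk samples, fewer cells expressing a gene and less RNA of it per cell cannot be told apart.

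Immediate early genes are transcribed within minutes of a growth factor, stress or calcium signal, without new protein synthesis, and their mRNAs are short-lived. FOS proteins cannot bind DNA as homodimers and pair with JUN proteins to form AP-1, whereas JUN proteins can also pair with each other. EGR proteins are zinc-finger factors that bind GC-rich sites, and in neurons EGR1 and FOS are widely used as markers of activity. Serum response factor, SRF, together with kinase-activated ETS cofactors is the textbook route from MAP kinase signals to these promoters. SRF binds a motif named the CArG box, and CREB and ATF factors bind the cAMP response element, CRE.

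Some of the promoters carry these motifs. The RefSeq promoter table used here, on GRCh38.p14, held a start for 8 of the 10 genes, without FOSL1 and EGR3. The 400 bases before each start were read from hg38 and searched on both strands. A CArG box was present upstream of FOS, FOSB, EGR1 and EGR2, that is 4 of the 8 genes, compared with 1.90% of 35116 promoters of the same length. The CRE, TGACGTCA, was present upstream of FOSB and JUND, against 1.89% of all promoters. The windows of FOSL2, JUN and JUNB held neither motif. None of the 8 windows held the AP-1 motif TGACTCA (6.10% of promoters), the EGR motif GCGTGGGCG (0.945%) or a p53 element of paired decamers (0.0427%). A match is a description of the letters and not a bound site. The stretches below carry the matches, shown because they distinguish genes within the FOS and JUN families and differ in number between EGR1 and EGR2. They run 5′ to 3′ on the strand of the gene, in hg38, with the matched motif in capitals and 15 bases on either side. All of them lie before the start used and overlap no exon of GENCODE release 44. The EGR2 stretches lie within an intron of longer EGR2 transcripts, whose starts are further upstream.
FOS, chr14:75278499-75278538, plus strand, CArG box at bases -314 to -305 from the start: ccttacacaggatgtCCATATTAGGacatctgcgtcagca
FOSB, chr19:45467656-45467746, plus strand, CRE and then CArG box: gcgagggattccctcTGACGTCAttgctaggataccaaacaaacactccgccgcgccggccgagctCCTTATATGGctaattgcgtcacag
JUND, chr19:18281800-18281837, minus strand, CRE: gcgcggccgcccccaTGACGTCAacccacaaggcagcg
EGR1, chr5:138465084-138465139, plus strand, distal pair of CArG boxes: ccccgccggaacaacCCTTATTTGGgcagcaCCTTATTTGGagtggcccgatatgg
EGR1, chr5:138465359-138465420, plus strand, proximal pair of CArG boxes: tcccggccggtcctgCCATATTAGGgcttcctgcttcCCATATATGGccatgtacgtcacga
EGR2, chr10:62816712-62816751, minus strand, distal CArG box: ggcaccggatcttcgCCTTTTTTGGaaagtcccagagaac
EGR2, chr10:62816413-62816452, minus strand, proximal CArG box: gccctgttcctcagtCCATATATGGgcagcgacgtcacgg
EGR1 carried 4 CArG boxes, EGR2 carried 2, and FOS and FOSB carried 1 each. For EGR2, which has several RefSeq starts, the start nearest to its most counted transcript was used.

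The estimated counts of a library, the numbers of read pairs that kallisto assigned to transcripts, summed to between 14455477 and 19532971. They were summed per gene and scaled to library size as CPM (counts per 1000000) with TMM normalization, and log2 fold changes (LFC, nutlin over vehicle) came from edgeR's quasi-likelihood test at 5% false discovery rate (FDR) with Benjamini-Hochberg adjustment over all genes tested. The treatment was visible in MDM2, with an LFC of 4.51 ± 0.07 (SE), and in the p53 target CDKN1A, with 5.68 ± 0.14. The paper calls the samples biological replicates, whereas the labels do not say whether they came from separate passages. As a check of the line, the 12 adrenergic neuroblastoma markers summed to between 3283 and 3801 TPM (transcripts per 1000000, a scale that divides by effective length) in vehicle samples.

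All 10 genes rose with nutlin, and for each of them every nutlin sample lay above every vehicle sample. The response was broad, since 32.3% of all genes tested were called higher, 26.5% were called lower, and 12.2% had every nutlin sample above every vehicle sample. The median LFC was 4.84 in the FOS family, 1.09 in the JUN family and 2.56 in the EGR family, beside 0.19 over all genes tested. FOS, FOSB, FOSL1 and EGR2 had LFCs between 4.44 and 5.08, EGR1 and EGR3 between 1.81 and 2.56, and FOSL2, JUN, JUNB and JUND between 0.89 and 1.62. Among the 15168 genes that averaged 1 CPM or more, 135 had an LFC above 4, and FOSL1, FOSB, FOS and EGR2 ranked 66, 75, 84 and 100 by LFC.

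**Figure D1:**
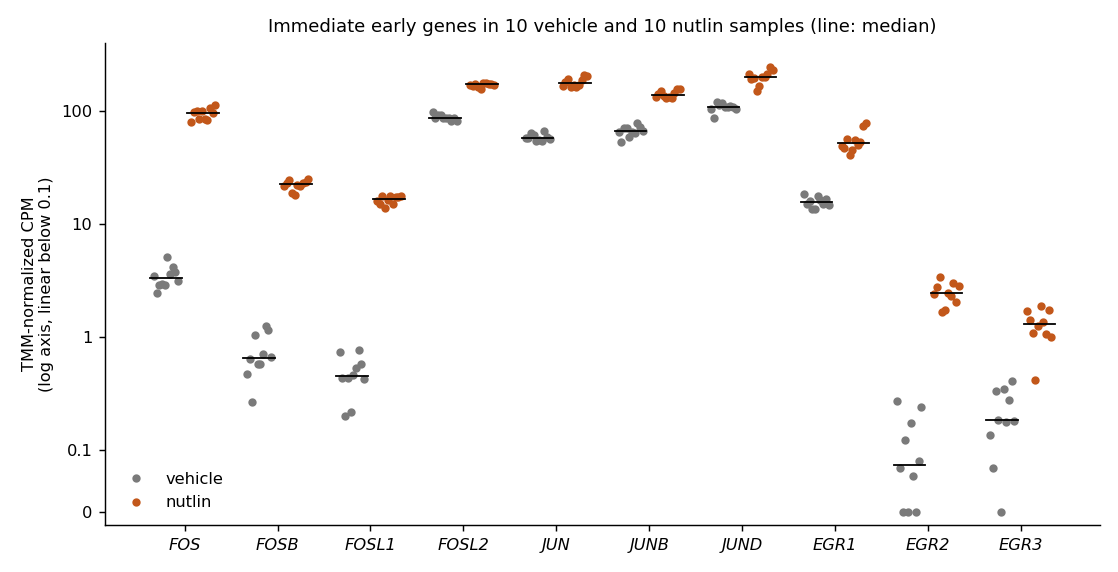
TMM-normalized CPM of the 10 genes on a log axis that is linear below 0.1, with 1 point per sample, vehicle in grey and nutlin in orange, and a line at the group median. The groups are separate for every gene, by the widest margin for FOSL1, where the lowest nutlin sample (13.8 CPM) was 18.2 times the highest vehicle sample (0.757 CPM), and by the narrowest for EGR3.

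FOS, the best known partner of JUN in AP-1, lies on chromosome 14 (75278826 to 75282230, plus strand, GENCODE release 44). It ranged from 2.41 to 5.07 CPM in vehicle samples (median 3.28) and from 79.3 to 112 in nutlin samples (median 96.2). The counts behind these values were 34 to 88 per vehicle library and 1233 to 1701 per nutlin library. The LFC was 4.77 ± 0.09 (SE, adjusted p = 3.21e-27, edgeR), a 27.2-fold rise. Every nutlin library thus held at least 1233 counts where no vehicle library held more than 88, and the coefficient of variation among nutlin samples was 11.4%.

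FOSB, whose protein is long-lived in its truncated form in brain, lies on chromosome 19 (45467995 to 45475179, plus strand). It ranged from 0.266 to 1.24 CPM in vehicle samples (median 0.650) and from 17.8 to 24.9 in nutlin samples (median 22.4). The LFC was 4.91 ± 0.12 (SE, adjusted p = 2.83e-24, edgeR). Vehicle libraries held 4 to 18 counts and nutlin libraries 274 to 404, so the vehicle level is the less precise side of this ratio.

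FOSL1, which encodes FRA1 and is usually described as a later, AP-1-dependent member of the family, lies on chromosome 11 (65892049 to 65900573, minus strand). It ranged from 0.199 to 0.757 CPM in vehicle samples (median 0.445) and from 13.8 to 17.6 in nutlin samples (median 16.6). Its LFC of 5.08 ± 0.12 (SE, adjusted p = 3.89e-25, edgeR) was the highest of the 10 genes in this fit, although its 95% confidence interval (4.85 to 5.31) overlapped those of FOS (4.59 to 4.94), FOSB (4.67 to 5.15) and EGR2 (3.88 to 5.01). The order of these 4 genes depended on the scale, as EGR2 (6.25) and FOSB (5.30) exceeded FOSL1 (5.23) with protein_coding transcripts only and FOS (4.10) exceeded FOSL1 (3.32) on log2(TPM + 1). The nutlin samples were tight, with a coefficient of variation of 8.26%. In vehicle libraries only 3 to 11 counts were found. The SE above was derived from the edgeR F statistic. DESeq2 and limma voom gave larger SEs for FOSL1, 0.18 and 0.19, so its interval may be too narrow.

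FOSL2, which encodes FRA2, behaved unlike the rest of its family in starting high. It lies on chromosome 2 (28392448 to 28417317, plus strand). It ranged from 81.1 to 96.7 CPM in vehicle samples (median 86.0) and from 154 to 175 in nutlin samples (median 171). The LFC of 0.95 ± 0.03 (SE, adjusted p = 1.09e-20, edgeR) amounts to 1.94-fold, with a confidence interval (0.89 to 1.02) far from those of FOS, FOSB and FOSL1.

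The JUN family, whose proteins pair with FOS proteins in AP-1, was well expressed before treatment and rose by smaller factors. JUN, the founding member (chromosome 1, 58776845 to 58784048, minus strand), ranged from 53.6 to 66.1 CPM in vehicle samples (median 57.6) and from 161 to 205 in nutlin samples (median 176). Its LFC was 1.62 ± 0.05 (SE, adjusted p = 2.22e-22, edgeR), the highest of the family. JUNB, often an antagonist of JUN in growth control (chromosome 19, 12791486 to 12793315, plus strand), ranged from 52.98 to 77.8 CPM (median 65.6) and from 129 to 156 CPM (median 139) in the same order. Its LFC was 1.09 ± 0.05 (adjusted p = 2.75e-17, edgeR). JUND, the constitutive member of the family (chromosome 19, 18279694 to 18281622, minus strand), ranged from 86.8 to 118 CPM (median 108) and from 151 to 242 CPM (median 200). Its LFC of 0.89 ± 0.06 (adjusted p = 3.48e-13, edgeR) was the smallest of the 10 genes. The confidence intervals of JUNB (0.98 to 1.19) and JUND (0.77 to 1.02) overlapped each other, and that of JUN (1.53 to 1.72) lay above both. All 3 genes have a single or nearly single annotated transcript in these counts, since JUN and JUNB have 1 each and the main transcript of JUND took 95.1% of its vehicle counts and 94.1% of its nutlin counts. Of the exonic bases of JUNB, 259 of 1830 overlap HOOK2 on the opposite strand, and the sources used here do not say whether counting used the strand.

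EGR1, the most widely induced EGR gene (chromosome 5, 138465479 to 138469303, plus strand), ranged from 13.5 to 18.3 CPM in vehicle samples (median 15.4) and from 40.5 to 77.9 in nutlin samples (median 51.5). Its LFC was 1.81 ± 0.10 (SE, adjusted p = 2.46e-16, edgeR). Nutlin samples were more spread than vehicle samples, with a coefficient of variation of 21.9% against 10.2%. Nutlin replicates 11 and 10 held 77.9 and 72.7 CPM, and the next sample, replicate 3, held 55.9 CPM. The same 2 replicates also held the highest JUND values, 229 and 242 CPM.

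EGR2, known for its role in Schwann cell myelination and hindbrain patterning (chromosome 10, 62811996 to 62819167, minus strand), was close to absent without nutlin. Vehicle libraries held 0 to 4 counts, 16 in all, and 3 of the 10 held none, which allows up to 0.213 CPM at 3 counts in those libraries. Nutlin libraries held 24 to 56 counts, 384 in all, at 1.64 to 3.36 CPM (median 2.41). The fitted LFC was 4.44 ± 0.29 (SE, adjusted p = 3.06e-14, edgeR), with a wide interval of 3.88 to 5.01. DESeq2 and limma voom gave larger SEs, 0.39 and 0.34, so even this interval may be too narrow. A lncRNA, ENSG00000289487, shares 145 of its 3707 exonic bases on the same strand.

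EGR3, an EGR gene of muscle spindle and lymphocyte development, was the least expressed member after treatment. Vehicle libraries held 0 to 6 counts, 32 in all, and 1 of the 10 held none. Nutlin libraries held 6 to 28 counts, 200 in all, at 0.410 to 1.85 CPM (median 1.29). The LFC was 2.56 ± 0.30 (SE, adjusted p = 9.85e-09, edgeR). The groups only just failed to overlap, since the highest vehicle sample held 0.406 CPM and the lowest nutlin sample 0.410, a ratio of 1.01. A lncRNA on the opposite strand overlaps 164 of the 5033 exonic bases of EGR3.

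**Figure D2:**
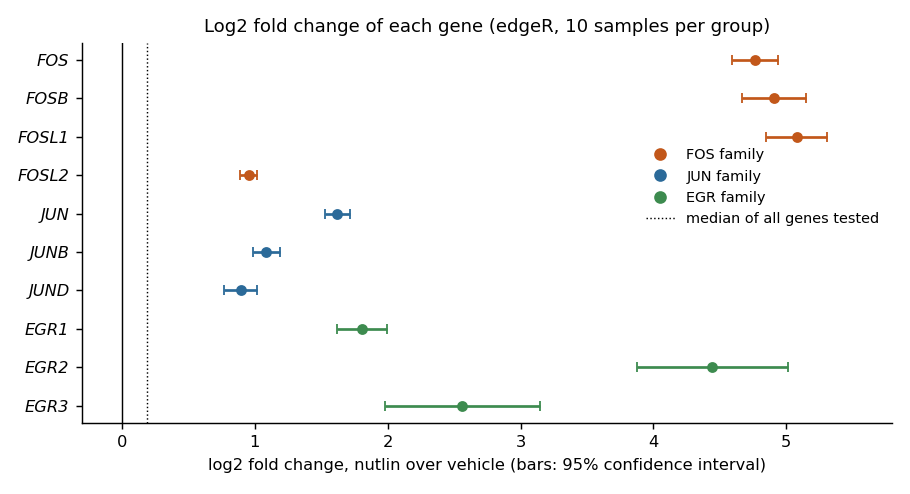
LFC (nutlin over vehicle) of each gene on the x axis with its 95% confidence interval as a bar, coloured by family, over 10 samples per group. The SE behind the bars was derived from the edgeR F statistic. With DESeq2 it was larger for every gene, and with limma voom for every gene but FOSL2. This includes the low-count genes FOSB, FOSL1, EGR2 and EGR3, and also FOS, with 0.127 in limma voom against 0.089 here. The intervals of FOS, FOSB, FOSL1 and EGR2 lie at 3.88 or more, those of FOSL2, JUN, JUNB, JUND and EGR1 lie below 2, and all lie right of the median of all genes tested (dotted line, 0.19).

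Levels can be compared between genes on the TPM scale. In vehicle samples the order of median TPM was JUND (78.8), JUNB (42.5), JUN (18.1), FOSL2 (16.2), EGR1 (5.33), FOS (2.05), FOSL1 (0.364), FOSB (0.334), EGR3 (0.0542) and EGR2 (0.0326). The sample ranges of JUN and FOSL2 overlapped, as did those of FOSL1 and FOSB and those of EGR3 and EGR2, so the order within these pairs is not fixed by the samples. In nutlin samples the order was JUND (154), JUNB (85.4), FOS (56.6), JUN (53.7), FOSL2 (34.1), EGR1 (17.7), FOSL1 (12.8), FOSB (8.28), EGR2 (0.931) and EGR3 (0.513). There FOS and JUN overlapped, as did EGR1 and FOSL1, and EGR2 and EGR3. FOS thus passed EGR1, FOSL2 and the median of JUN, and JUND and JUNB kept the top of the order.

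Summed over each family, mean TPM rose from 19.8 ± 3.06 (SD, n = 10) to 112 ± 7.98 for the 4 FOS genes, from 138 ± 9.64 to 290 ± 33.7 for the 3 JUN genes, and from 5.58 ± 0.892 to 20.3 ± 4.56 for the 3 EGR genes. These are 5.66-fold, 2.11-fold and 3.64-fold changes of the means. JUN family mRNA was therefore still the more abundant side of AP-1 in nutlin samples, where the lowest JUN sum (226 TPM) lay above the highest FOS sum (128 TPM).

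The make-up of the FOS family changed most. FOSL2 made up 83.7% ± 4.16 (SD, n = 10) of its summed TPM in vehicle samples and 30.0% ± 2.46 in nutlin samples, although FOSL2 itself rose. FOS went from 12.4% ± 3.39 to 51.3% ± 2.78, FOSL1 from 1.91% ± 0.727 to 11.3% ± 0.536, and FOSB from 1.97% ± 0.790 to 7.35% ± 0.594. For each of these 4 genes the 2 groups did not overlap (permutation test, two-sided, 100000 resamples, adjusted p = 2.5e-05 over 10 genes). On this scale the predominant FOS-family mRNA was FOSL2 in each vehicle library and FOS in each nutlin library. The change of place depends on dividing by length, since in CPM the lowest nutlin value of FOSL2 (154) lay above the highest of FOS (112). With counts not divided by length the share of FOSL1 rose by 4.88 percentage points, against 9.42 on TPM.

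Within the JUN family the share of JUN rose from 13.1% ± 0.974 to 18.9% ± 1.12 and that of JUND fell from 57.0% ± 1.64 to 51.1% ± 3.14 (permutation test, adjusted p = 2.5e-05 each), with overlapping samples for JUND. Without division by length the difference for JUN was 9.38 points, against 5.79 on TPM. The share of JUNB was 30.0% ± 1.25 in vehicle and 30.1% ± 2.09 in nutlin samples, a difference of 0.0733 percentage points (permutation test, adjusted p = 0.925) that took the opposite sign, -1.37, when counts were not divided by length (adjusted p = 0.0461). In the EGR family EGR1 remained the dominant mRNA, at 98.2% ± 1.06 and then 92.7% ± 1.34 (adjusted p = 2.5e-05). EGR2 went from 0.691% ± 0.634 to 4.53% ± 0.993 (permutation test, adjusted p = 2.5e-05) and EGR3 from 1.14% ± 0.772 to 2.74% ± 1.02 (adjusted p = 0.00111), the latter with overlapping samples and with a difference of 0.925 points, against 1.60, when counts were not divided by length.

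**Figure D3:**
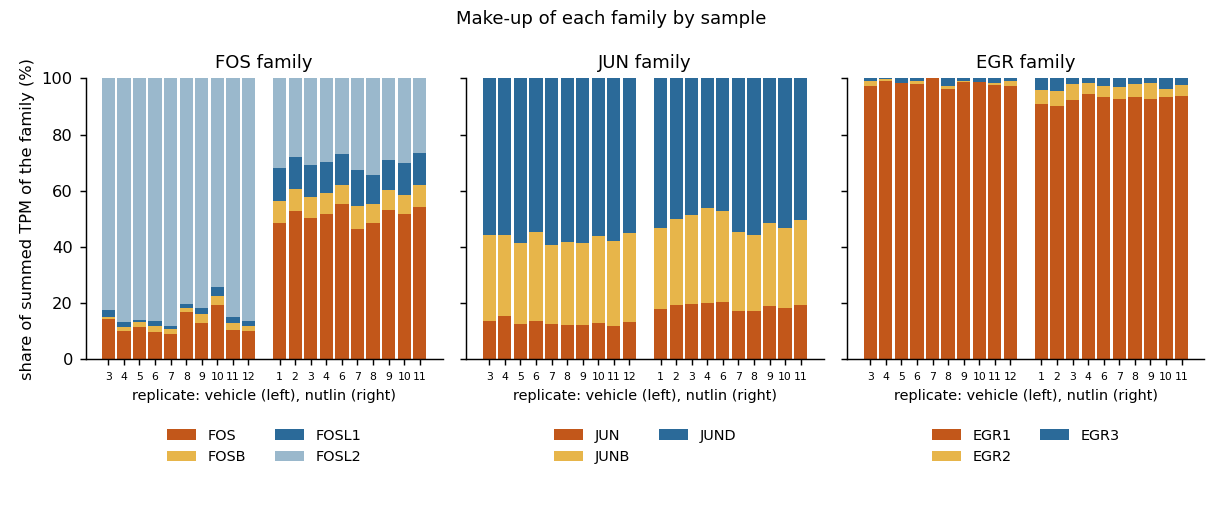
Share (%) of each gene in the summed TPM of its family, with 1 stacked bar per sample, vehicle replicates on the left and nutlin replicates on the right of each panel. FOSL2 fills 74.2% to 88.1% of the FOS-family bar in vehicle samples and 26.7% to 34.2% in nutlin samples, whereas the JUN and EGR bars change by smaller steps.

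The transcript that took most nutlin counts of FOSL1, FOSB or EGR2 took the smaller part of their few vehicle counts, at most 18 per library, and these splits were not tested. kallisto divided each gene's counts among its annotated transcripts, an estimate that is coarse at a few counts. The full-length FOSL1 transcript, FOSL1-201 (4 exons, 813 coding bases), took 12.5 of the FOSL1 counts over all 10 vehicle libraries and 1695 over all nutlin libraries. The short transcript FOSL1-202 (2 exons, 507 coding bases) took 59.0 and 464. Most of the few vehicle counts of FOSL1 (82.4%) were therefore on the short form, against 18.2% in nutlin libraries.

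The counts of FOSB were divided in a similar way. Its full-length transcript, FOSB-201 (4 exons, 338 codons), reached 0.5 counts in 1 of 10 vehicle libraries, with 5.20 counts over all 10, and took 94.0 to 245 counts in every nutlin library. FOSB-211 (5 exons, 237 codons) encodes the start of the same protein and ends 101 codons earlier, the shape of the truncated form ΔFOSB. It reached 0.5 counts in 1 of 10 vehicle libraries, with 4.52 counts over all 10, and took 4.70 to 38.5 counts in every nutlin library. Over the nutlin libraries FOSB-211 made up 7.02% of FOSB counts and FOSB-201 55.5%.

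For EGR2, the full-length EGR2-201 took 4 counts in 1 vehicle library and 300 over the nutlin libraries, whereas EGR2-203, a transcript annotated as a target of nonsense-mediated decay, took 12.2 counts over 6 vehicle libraries and 13.5 with nutlin, of which 13.3 were in nutlin replicate 8. FOS and FOSL2 had enough counts in every sample to test the share of their main transcript. FOS-201 had a median share of 60.9% in vehicle samples (32.9% to 91.4%) and of 75.1% in nutlin samples (65.8% to 83.2%), a difference of mean shares of 11.6 percentage points (permutation test, two-sided, p = 0.102). FOSL2-201 went from a median of 73.9% to 82.0%, a difference of mean shares of 9.23 points (permutation test, adjusted p = 0.00026 over both genes). On shares of TPM that difference was 3.40 points (adjusted p = 0.141), so the call did not carry over to that scale.

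**Figure D4:**
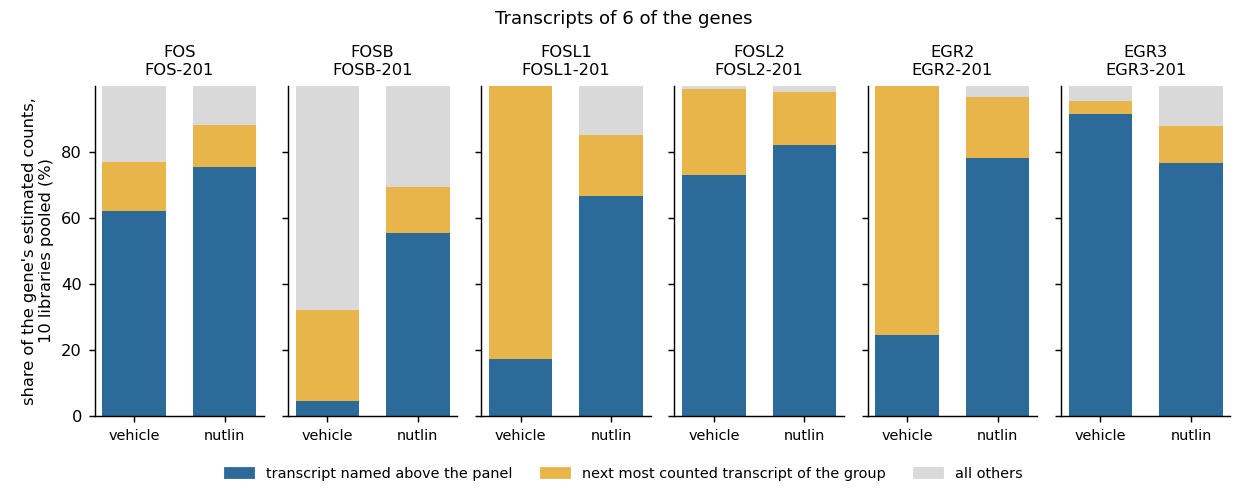
Share (%) of each gene's estimated counts, pooled over 10 libraries per group, that was assigned to the transcript named above each panel (blue), to the next most counted transcript of that group (yellow) and to all others (grey). In the FOSB, FOSL1 and EGR2 panels the blue share was 4.71%, 17.4% and 24.6% with vehicle and 55.5%, 66.7% and 78.1% with nutlin, where vehicle totals were only 110, 72 and 16 counts.

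The genes were also compared with each other across the replicates of a group. Over the 9 genes that averaged 1 CPM or more, 35 of 36 pairs had a positive Pearson correlation of log2(CPM + 1) across the 10 nutlin samples, with a median r of 0.59. In the 10 vehicle samples 24 of 36 pairs were positive, with a median r of 0.20. Each r was also taken without the 2 samples farthest from the median of the first gene of the pair. The median was then 0.49 in nutlin samples, with 31 of 36 pairs positive, and 0.07 in vehicle samples, with 21 of 36. No background of other gene pairs was computed for these counts. The points of a pair share a library and its scaling factor, and on TPM the medians were 0.61 and 0.37. Only JUN and JUNB in nutlin samples passed the adjustment over 72 pairs, with r = 0.95 (permutation test, adjusted p = 0.0065) and Spearman's rho = 0.79 (adjusted p = 0.146). Without the 2 samples farthest from the median of JUN, r was 0.88. At an unadjusted permutation p under 0.05 there were 16 pairs in nutlin samples and 1 in vehicle samples. Nutlin replicate 4 held the lowest value of 5 of the 10 genes and replicate 6 that of 3, and replicate 11 held the highest value of 4. In vehicle samples, leaving aside ties at 0 in EGR2, replicates 4 and 7 each held the lowest value of 3 genes. Vehicle replicate 10 held the highest value of 4. The difference between the groups in these correlations was not tested.

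For FOSL1, the gene with the highest LFC in the edgeR fit, the most alike of all other genes in sample-to-sample deviations from the group means were BAALC (r = 0.82 over 20 samples), SGK1 (0.81), BTBD19 (0.80), NOG (0.79) and WDR1 (0.79). SGK1 encodes a serum-inducible kinase and NOG the BMP antagonist noggin. These 5 genes were picked as the highest among the 15168 genes at 1 CPM or more, so their r is raised by the choice. The members were not picked by r. Their values were 0.56 for FOSB, 0.52 for FOS, 0.52 for EGR1, 0.41 for EGR2, 0.39 for JUNB, 0.34 for JUN, 0.16 for JUND and 0.15 for FOSL2. EGR3, at under 1 CPM, was left out. The picked and unpicked values are therefore not comparable. These values are descriptions, and the vehicle part of FOSL1 rests on few counts.

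The genes that act with the FOS, JUN and EGR proteins were followed in lists of known members. They are to be read beside the 32.3% of all genes tested that were higher, the 26.5% that were lower and their median LFC of 0.19. Well-expressed genes had another background. Those that averaged 1 CPM or more had a median LFC of -0.08, and 34.8% of them were higher. Under a stricter expression filter, filterByExpr of edgeR, 6768 of 16347 genes were higher and 6363 were lower. Of 13 other bZIP partners tested, 6 rose, 2 fell and 5 were not called, that is 46.2% higher and 15.4% lower, with a median LFC of 0.15, below that of all genes. The stress-response factor ATF3 rose by 4.90 ± 0.12 (LFC ± SE), as far as FOSB, from a vehicle median of 2.78 CPM to 84.3. ATF2, a JUN partner at CRE sites, fell (-0.34 ± 0.05), as did BATF3 (-0.73 ± 0.15). Of EGR4 and the NAB corepressors, which bind EGR proteins and are induced by them, 2 of 3 rose. NAB2 had an LFC of 1.52 ± 0.06, and EGR4, the remaining EGR gene, 2.97 ± 0.31 at under 1 CPM, and NAB1 was not called (LFC -0.14 ± 0.06, adjusted p = 0.0578, edgeR).

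Other immediate early genes were mostly higher with nutlin. Of 26 tested, 22 rose, 2 fell and 2 were not called, so that 84.6% were higher, and their median LFC was 1.27. The neuronal activity factor NPAS4 had an LFC of 4.14 ± 0.23, the antiproliferative gene BTG2 3.74 ± 0.05 and the synaptic gene ARC 3.68 ± 0.06. The 2 that fell were NR4A2 (-0.27 ± 0.10) and ZFP36L2 (-0.19 ± 0.04). NR4A2 was not called under 12 of 32 alternatives, among them those without vehicle replicate 10, nutlin replicate 2 or nutlin replicate 4, and ZFP36L2 was not called with protein_coding transcripts only. The growth-factor-inducible matrix genes CCN1 and CCN2 were not called. BTG2 is also known as a p53 target, as is ATF3. Of the activity-regulated neuronal genes, a list that shares ARC, NPAS4 and DUSP1 with the one before, 9 of 13 rose (69.2%) and 3 fell. The latter were PCSK1 (-2.09 ± 0.15), NRN1 (-1.04 ± 0.07) and RGS2 (-0.58 ± 0.06).

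Upstream of the promoters, mRNAs of the signalling machinery went in both directions. Of SRF and its cofactors, 3 of 7 rose (42.9%, against 32.3% of all genes) and 4 fell, with a median LFC of -0.29. SRF itself had an LFC of 0.23 ± 0.04, ELK4 0.49 ± 0.06 and FHL2 0.49 ± 0.05, whereas the cofactors MRTFA and ELK3 had -0.43 ± 0.05 and -0.34 ± 0.05. Of 20 MAP kinases and kinases downstream of them, 7 rose (35.0%, near the share of all genes). Another 10 fell (50%, against 26.5% of all genes tested and 6363 of 16347 genes under filterByExpr). All 20 averaged 1 CPM or more, and their median LFC of -0.14 stands beside -0.08 over all genes at that level. The stress kinase MAPK11 (2.69 ± 0.17) and the ERK-activated kinase RPS6KA1 (2.44 ± 0.05) rose, and MAPK10, a neuronal JNK (-1.55 ± 0.05), MAPK3, which is ERK1 (-0.75 ± 0.04), and MAP2K1, its activating kinase (-0.72 ± 0.04), fell. mRNA levels do not measure kinase activity.

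Downstream, 13 of 16 ERK output and feedback genes rose (81.2%, against 32.3% of all genes) and 3 fell, with a median LFC of 0.72. The ERK phosphatase DUSP6 had an LFC of 2.13 ± 0.10 and the receptor EPHA4 2.04 ± 0.09. The receptor gene EPHA2, at 6.61 ± 0.09, moved further than any of the 10 genes, and ETV1 (-0.97 ± 0.07), SPRED1 (-0.34 ± 0.07) and ETV4 (-0.19 ± 0.04) fell. Of 18 genes known as AP-1 targets, 11 rose (61.1%), 2 fell and 5 were not called, with a median of 1.34, and 5 averaged under 1 CPM. The lists share genes: CCND1 is also in the ERK list, TGFB1 in the EGR target list, and VIM and CD44 among the mesenchymal markers. NAB2 is counted both as a NAB corepressor and as an EGR target. The cytokine LIF (5.44 ± 0.09) and the stress enzyme HMOX1 (3.70 ± 0.19) were among those that rose, whereas the urokinase receptor PLAUR (-2.56 ± 0.15) and the intermediate filament VIM (-0.57 ± 0.04) fell. Of 11 genes known as EGR targets, 5 rose (45.5%), among them the neurotrophin receptor NGFR (1.47 ± 0.08) and TGFB1 (0.92 ± 0.10), and 3 fell (27.3%, near the 26.5% of all genes), the most being F3 (-0.48 ± 0.12), which encodes tissue factor. Of 13 regulators of JUN and FOS protein, 3 rose (23.1%) and 7 fell (53.8%). Among those that rose was FBXW7, a ubiquitin ligase for JUN (0.90 ± 0.07). Whether ERK, AP-1 or EGR proteins changed the genes of the lists named after them was not tested.

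**Figure D5:**
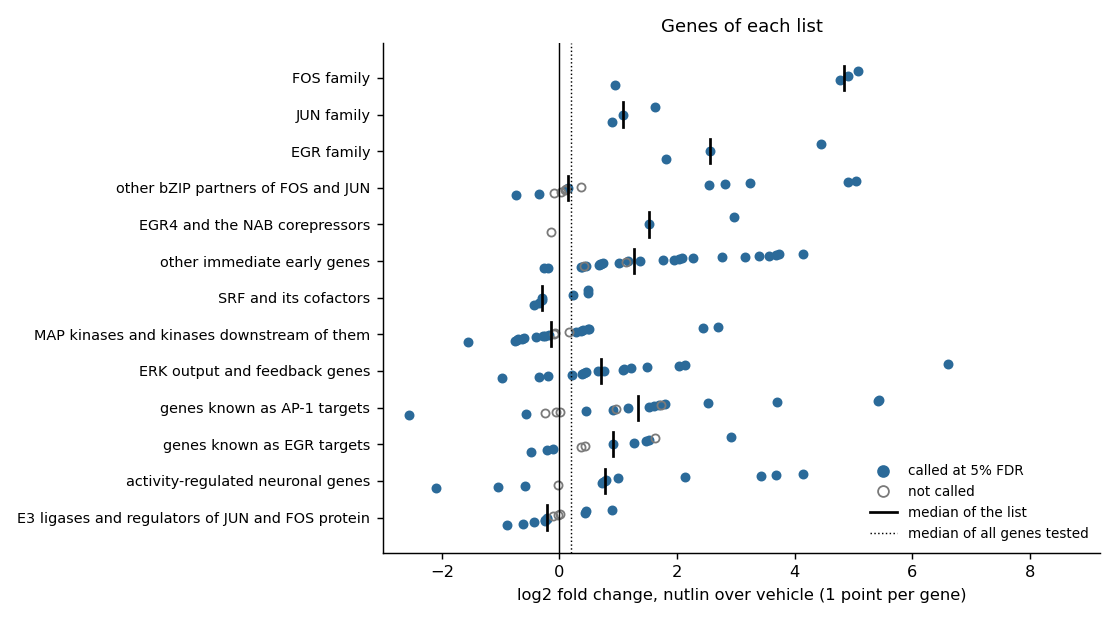
LFC (nutlin over vehicle, x axis) of every tested gene in the 3 families and 10 further lists, with 1 point per gene, filled where called at 5% FDR, a bar at the median of each list and a dotted line at the median of all genes tested (0.19). The FOS, JUN and EGR genes all lie right of that line, as do most other immediate early genes (median 1.27), whereas SRF and its cofactors (median -0.29) and the MAP kinases (median -0.14) lie on both sides of 0.

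Markers of other cell types were low, but some of them changed as much as the JUN genes. The shares below are to be read beside the 32.3% of all genes tested that were higher and the 26.5% that were lower. For well-expressed markers the filterByExpr background is the nearer one, with 6768 of 16347 genes higher and 6363 lower. The summed TPM of 6 immune markers ranged from 2.35 to 5.13 in vehicle and from 7.47 to 10.8 in nutlin samples, without overlap. Of 4 tested, CD68 (LFC 2.29 ± 0.20) and LYZ (1.14 ± 0.11) were called higher (50%), and CD3E was at 0 in every sample. Schwann cell markers summed to between 1.24 and 2.64 and then between 1.68 and 4.29 TPM. Of 4 tested, 1 was higher (25%, ERBB3, LFC 2.36 ± 0.18) and 1 lower (25%). Endothelial markers summed to at most 1.26 TPM, with 2 of 5 higher (40%) and 1 lower (20%). Fibroblast markers summed to at most 14.8 TPM. Of these 6, COL1A1 was higher (16.7%, LFC 1.98 ± 0.07), and PDGFRB (-0.95 ± 0.08) and LUM (-1.71 ± 0.18) were lower (33.3%). Of the adrenergic markers 4 of 12 rose (33.3%) and 7 fell (58.3%), with a nutlin sum of 3718 to 4650 TPM. Of the mesenchymal neuroblastoma markers 6 of 12 rose (50%) and 5 fell (41.7%), with sums of 759 to 874 and then 461 to 627 TPM. The part of any of these cell types in the rise of the FOS, JUN and EGR genes was not tested. Library totals had medians of 17819527 with vehicle and 15675936 with nutlin, so the nutlin libraries were on the whole the shallower ones.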

How the data were processed

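RNA-seq of 10 vehicle and 10 nutlin samples was re-analysed from the processed files, and the condition of each sample was taken from its label. The libraries were stranded poly(A) TruSeq libraries. The authors quantified the reads with kallisto 0.42.4 on GRCh38 transcripts, as also named in the submitters' processing notes. The deposited estimated counts are not normalized. The deposited TPM values are these counts scaled by effective length and library size, and the authors' files also give the length and effective length of each transcript in bases.

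Transcripts were matched to GENCODE release 44 by identifier without version (191106 of 198968), and estimated counts were summed per gene and rounded. The test was limited to genes whose counts summed to 1 or more in both conditions, and was made with edgeR 4.0.16 in R 4.3.3 (quasi-likelihood F-test, TMM, condition only, Benjamini-Hochberg, 5% FDR). Alternatives used DESeq2 1.42.0 and limma 3.58.1. Shares and correlations were tested by permutation with 100000 resamples in Python 3.11.15 with scipy 1.17.1. No counting interval is given for gene levels, and a count of 0 was taken to allow 3 counts, which covers counting error only.

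Named genes were the 10 genes, MDM2 and CDKN1A, from each list up to 3 called genes per direction with the largest LFC at 1 CPM or more on average and no overlap, and the 5 genes most like FOSL1. NAB1, EGR4, BATF3, NR4A2, ZFP36L2, CCN1, CCN2, SPRED1, ETV4, F3, DUSP1, CCND1 and CD3E were named after their values were seen. Some genes of the lists that this rule names are not reported here. The genes and the lists were chosen with earlier results of these data known. Promoters were taken from RefSeq starts and hg38, and 8 of 10 genes matched.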

Additional observations from a re-analysis of the deposited data

Results flagged for a closer look

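JUND in vehicle samples held 1 value that stood apart. Vehicle replicate 4 had 86.8 CPM, and the nearest other vehicle sample had 103 CPM, a gap of 0.511 of the range of the group, above Dixon's 95% critical value for 10 samples. Among the 20 groups examined (10 genes in 2 conditions) it was the only such sample, and chance alone flags about 1 in 20 groups. With that replicate left out the call of JUND was kept.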

How the results depend on the processing

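The LFCs of the 10 genes kept their direction and their call in all 319 values, which came from 12 other settings (1 of them the reported fit read at 1% FDR) and from leaving out each of 20 samples. EGR3 was not tested under the filterByExpr filter, where 9 genes were called. Single values still moved. On log2(TPM + 1) with limma the LFCs were 2.74 for FOSB, 3.32 for FOSL1, 0.86 for EGR2 and 0.54 for EGR3, a scale that understates low genes. With protein_coding transcripts only, EGR2 had 6.25. With the replicate block, over 16 samples, the LFC of FOS was 4.76, 7519 genes were called higher and 6757 lower, and all 10 genes were called. The same samples without the replicate block gave 8086 and 6906 calls. Over all genes at 1 CPM or more, same-numbered samples correlated between -0.10 and 0.11, and 0 of them correlated best with their own number. On the same 16 samples, the block lowered the SE of JUND from 0.077 to 0.054, of EGR1 from 0.111 to 0.081 and of JUNB from 0.062 to 0.051. Of the 10 genes, the SE rose only for FOSL1 (0.127 to 0.134) and FOSL2 (0.040 to 0.047). The labels do not say whether the numbers mark pairs, and these values do not settle it.

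The difference in the share of JUNB was 0.0733 percentage points and ranged from -0.355 to 0.410 with 1 sample left out, so its sign is not fixed. It was -1.37 with counts not divided by length. The difference for FOSL2-201 was 3.40 points on TPM shares. That for FOS-201 ranged from 8.14 to 14.6 points with 1 sample left out. It passed the threshold without vehicle replicate 11 (14.4 points, permutation adjusted p = 0.0388) or vehicle replicate 12 (14.6 points, adjusted p = 0.0318). The causes of these shifts were not tested. Of 1054 counts of calls in the other lists under alternatives, 27 moved by over 1.5 times, of which 11 were the count of other immediate early genes that fell, at 0 or 1 in place of 2 (1 without vehicle replicate 10, nutlin replicate 2 or nutlin replicate 4). Vehicle counts of at most 18 per library limit the LFCs of FOSB, FOSL1, EGR2 and EGR3.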
